A study of Mus musculus with 6 samples.

Results

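A small set of epithelial cells in mouse jejunum carried far more mRNA of interferon-stimulated genes than the cells around them. They were chosen by their own readout. In each barcode (a droplet taken as 1 cell) with at least 750 detected genes, at most 20% mitochondrial UMIs and no UMI of the T cell and leukocyte genes Cd3e, Cd3g and Ptprc, the UMIs (unique molecular identifiers, each standing for 1 captured mRNA) of Ifit1, Ifit3, Ifit1bl1, Isg15, Rsad2 and Usp18 were summed and divided by all UMIs of the barcode. The top 1% of this score over all 6 libraries, with at least 3 UMIs of the 6 genes, were taken as members. This gave 222 members among 24368 eligible barcodes (0.911%). The levels of these 6 genes in the members are therefore a description of the selection, and no test was run. Each combination of condition and fraction is 1 library of pooled mice, so a difference between libraries has no replicate check, while members are set against the other cells within each of the 6 libraries and the values of all 6 are given. Intervals are exact 95% intervals that cover counting error only.

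Interferons are secreted proteins that warn cells of infection. Type I interferons (alpha, beta) act through the receptor IFNAR1/IFNAR2 and type III interferons (lambda), to which gut epithelial cells are known to respond strongly, through IFNLR1/IL10RB. Both receptors signal through the kinases JAK1 and TYK2 to a complex called ISGF3, which contains STAT2 and IRF9, binds the interferon-stimulated response element (ISRE) and switches on antiviral genes, whereas interferon gamma acts through a receptor of its own and is known for inducing guanylate-binding proteins (GBPs), immunity-related GTPases (IRGs) and MHC class II.

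The study asked how diet and bariatric surgery change the intestinal epithelium. Male C57BL/6J mice, about 30 weeks old at collection, had been fed a low-fat diet (LFD) or a high-fat diet (HFD) for 16 weeks, then underwent sham surgery or vertical sleeve gastrectomy (VSG, removal of most of the stomach along its outer curve), and were sampled 5 weeks after surgery. Jejunal epithelium was separated into crypt and villus suspensions, and each condition gave 1 crypt and 1 villus library: cells were pooled from 3 animals for LFD sham, 3 for HFD sham and 2 for HFD VSG. The mice of a pool cannot be told apart, so all members of a library could come from 1 animal. The libraries held 7765 to 12012 called barcodes, of which 3169 to 5102 per library were eligible, and the median depth of eligible barcodes ran from 9869 UMIs (LFD sham crypts) to 32518 UMIs (HFD VSG villi).

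The cells' markers did not follow the crypt and villus labels. Of the non-members, 20.1%, 11.1% and 18.3% in the villus-labelled libraries of LFD sham, HFD sham and HFD VSG were in the pooled top 10% for stem cell genes, against 2.54%, 3.36% and 6.52% in the crypt-labelled libraries. The share in the pooled top 10% for enterocyte genes was 1.94%, 4.81% and 2.80% in the villus-labelled and 10.7%, 16.5% and 20.7% in the crypt-labelled libraries. "Crypts" and "villi" below are therefore the names of the libraries only. The epithelial list (Epcam and Krt8, which encode an adhesion protein and a keratin, among others) stood at 9264 CPM in members (UMIs of a gene or list per 1000000 UMIs) and at 8743 CPM in the other eligible barcodes. All 222 members and 100% of the others held a UMI of it, so its detection does not separate them, and no free RNA was removed.

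The score genes share a short sequence upstream of their starts, shown here because it is the DNA core that ISGF3 and interferon regulatory factors (IRFs) are known to bind. The motif GAAANNGAAA was searched on both strands (TTTCNNTTTC on the other), counting overlapping matches, in the 250 bases before each gene's start in RefSeq promoter windows of build GRCm38.p6. It was present in 936 of 27025 promoters (3.46%) and in all 5 score gene promoters that could be matched. Each stretch runs 5′ to 3′ on the gene's strand with the motif in capitals.
Ifit1 (chr19:34640775-34640823, + strand): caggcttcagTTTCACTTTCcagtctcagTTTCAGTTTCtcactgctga
Ifit3 (chr19:34583363-34583426, + strand): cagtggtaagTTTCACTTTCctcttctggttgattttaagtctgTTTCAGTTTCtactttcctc
Ifit1bl1 (chr19:34602053-34602082, − strand): actctgtaggTTTCATTTTCtgtaggttgg
Isg15 (chr4:156200865-156200906, − strand): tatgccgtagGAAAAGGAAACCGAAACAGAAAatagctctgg
Rsad2 (chr12:26456553-26456582, − strand): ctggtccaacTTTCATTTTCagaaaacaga

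Isg15 carried 3 overlapping copies, the nearest beginning 66 bases before its start, and Ifit1 and Ifit3 carried 2 each, whose nearer copies began 85 and 122 bases before the start. Outside the score, the genes that were highest in members relative to the other cells and held the motif included the chemokine gene Cxcl10, the GTPase genes Gbp7 and Igtp, and the ubiquitin ligase gene Trim30a.
Cxcl10 (chr5:92349083-92349112, − strand): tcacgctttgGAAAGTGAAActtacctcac
Gbp7 (chr3:142530273-142530302, + strand): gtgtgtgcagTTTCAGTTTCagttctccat
Igtp (chr11:58199512-58199541, + strand): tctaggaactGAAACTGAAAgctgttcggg
Trim30a (chr7:104465210-104465239, − strand): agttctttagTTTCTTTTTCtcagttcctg

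Of the genes measured well enough to compare members with other cells, 3838 of 4736 matched a promoter and 145 of these held the motif (3.78%). Among the 79 genes outside the score that were at least 2-fold higher in members in both libraries used for gene counts (described below), 70 matched and 18 held it (25.7%). Of all 85 higher genes, 54 were compared only because of their UMIs in members, so that they had to be higher. The motif share without them was not computed. By gene list, the motif was in 0 of 6 matched sensor genes, 0 of 6 ISG15 conjugation and Parp genes and 1 of 8 STAT and IRF genes. It was in 6 of 13 RNA effector genes and 9 of 9 GBP and IRG genes. A match is a description of the letters and not a measured binding site.

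The 6 score genes encode RNA-binding IFIT proteins that block translation of foreign RNA (Ifit1, Ifit3 and the related Ifit1bl1), the ubiquitin-like modifier ISG15, the antiviral enzyme viperin (Rsad2), and the protease USP18, which removes ISG15 and dampens receptor signaling. Ifit1, Ifit3 and Ifit1bl1 lie side by side on chromosome 19 (Ifit1 at chr19:34640871-34650009, GENCODE annotation of GRCm38) among further copies, so the split of UMIs between near-identical copies is uncertain. Of the members, 44 held UMIs of all 6 genes, 45 of 5, 51 of 4, 42 of 3, 29 of 2 and 11 of only 1. The 222 members held 0.758% of all UMIs of eligible barcodes and 47.8% of the UMIs of the 6 genes.

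Ifit1 reached 985, 384, 923, 665, 781 and 511 CPM summed over the members of LFD sham crypts, LFD sham villi, HFD sham crypts, HFD sham villi, HFD VSG crypts and HFD VSG villi, the order used for every 6 values below. In the other eligible barcodes of the same libraries Ifit1 was at 11.4, 2.62, 4.15, 2.10, 9.51 and 1.84 CPM. The members of LFD sham villi were the lowest and those of LFD sham crypts the highest. The gap to the other cells follows from the selection. Isg15 stood at 434, 451, 705, 735, 460 and 724 CPM in members and between 5.02 and 12 CPM in the other cells.

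Most cells showed no score gene at all. Between 70.9% and 89.2% of the eligible barcodes of a library held no UMI of the 6 genes. The members' score, at least 721 CPM by the rule, had a median of 1534 CPM and a maximum of 12673 CPM. The score at the edge of the selection was continuous: the lowest 3 members had 721, 722 and 722 CPM, and the highest barcodes below the edge had 716, 714 and 707 CPM. A further 22 barcodes of the top 1% held fewer than 3 UMIs of the 6 genes and were not taken. Summed over barcodes with fewer than 100 UMIs, taken here as droplets of free RNA without a cell, the 6 genes stood at 14.4 to 60.1 CPM, beside the 10.8 to 36.3 CPM of the non-member cells.

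**Figure D1:**
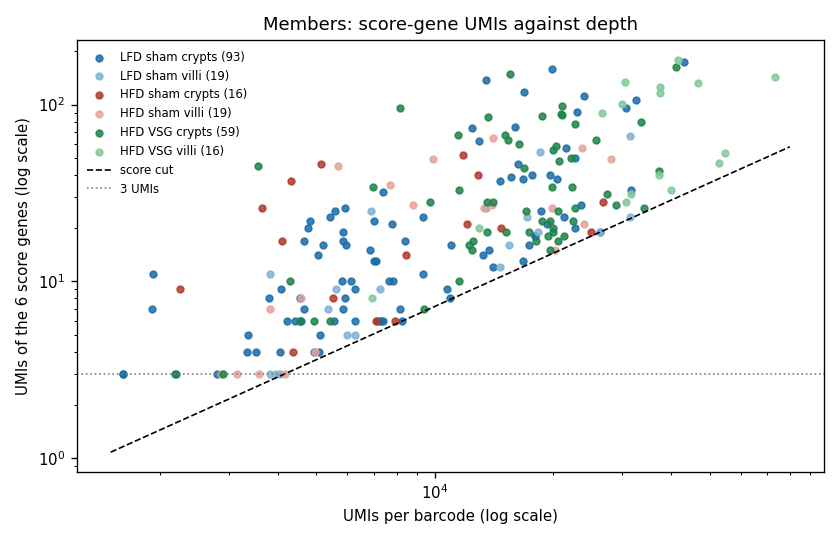
Each of the 222 members as a point, with its UMIs (horizontal, log axis) against its UMIs of the 6 score genes (vertical, log axis), coloured by library, and lines for the score edge of 721 CPM and for 3 UMIs. Members ran from 1609 to 73191 UMIs and held up to 179 UMIs of the 6 genes, with a median of 20, and the points of all libraries spread above the edge over a wide range of depth.

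When each score gene was set aside and the selection repeated with the other 5, between 180 and 217 of the members were chosen again. Ifit1 was then detected in 84.2% of the cells chosen without it and in 5.93% of the others, Isg15 in 78.9% and 8.85%, Ifit1bl1 in 64.7% and 5.52%, Ifit3 in 54.3% and 2.35%, Usp18 in 49.1% and 1.42%, and Rsad2 in 38.8% and 0.870%. Each of the 6 genes thus marked cells that the others had chosen, at 4.93 or more on the log2 scale in every library.

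Members were found in all 6 libraries, 168 of the 222 in crypt-labelled ones, and were most frequent in LFD sham crypts. There 93 of 4392 eligible barcodes were members (2.12%, 1.71 to 2.59). HFD VSG crypts followed with 59 of 5102 (1.16%, 0.881 to 1.49). The other 4 libraries held 16 to 19 members each, with shares of 0.532% (0.321 to 0.830) in LFD sham villi, 0.505% (0.289 to 0.819) in HFD sham crypts, 0.446% (0.269 to 0.696) in HFD sham villi and 0.413% (0.236 to 0.669) in HFD VSG villi, whose intervals overlap.

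**Figure D2:**
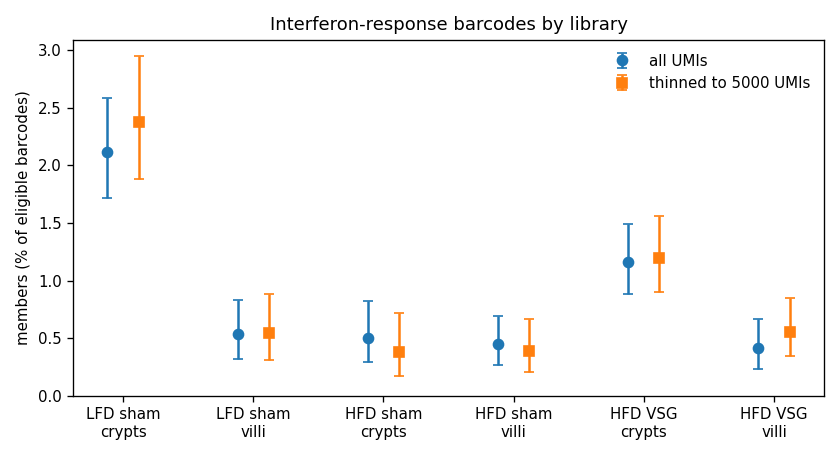
Share of eligible barcodes that were members (percent, vertical axis) in each of the 6 libraries, with points for the share, bars for exact 95% binomial intervals (counting error only) and a second set of points after thinning every barcode to 5000 UMIs. LFD sham crypts stood highest at 2.12%, HFD VSG crypts next at 1.16%, and the other 4 libraries lay between 0.413% and 0.532%.

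Across diets, the share in HFD sham crypts was 0.238 times that in LFD sham crypts (0.131 to 0.408), whereas the villus libraries of the same mice differed by a ratio of 0.838 (0.420 to 1.67). After surgery the share in HFD VSG crypts was 2.29 times that in HFD sham crypts (1.30 to 4.26), which is the same library that serves as the other side of the diet comparison, and 0.546 times that in LFD sham crypts (0.387 to 0.765). The HFD VSG and HFD sham villus libraries differed by a ratio of 0.925 (0.445 to 1.90). The crypt to villus ratio was 3.98 in LFD sham (2.41 to 6.90), 2.80 in HFD VSG (1.59 to 5.22) and 1.13 in HFD sham (0.544 to 2.32). With a mitochondrial limit of 10% in place of 20%, only 44 members were left, and the surgery ratio of the crypt libraries and the crypt to villus ratio of HFD VSG turned to −0.29 and −0.01 on the log2 scale. The interval of the surgery ratio of the crypt libraries also reached no difference with the top 0.5% of the score (log2 0.99, −0.07 to 2.18), and that of the crypt to villus ratio of HFD VSG did so among barcodes at or above the median enterocyte content (0.67, −0.65 to 2.35).

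Depth and cell maturity differ between these libraries. After thinning each barcode to 5000 UMIs, with 105 to 1061 shallower barcodes per library left out, the shares were 2.37%, 0.544%, 0.379%, 0.390%, 1.20% and 0.557%, and the order of the first 2 libraries was kept. The members were rarest among cells with the lowest enterocyte content: ranked by the share of UMIs in enterocyte genes, the quintiles of all eligible barcodes held 0.103%, 0.595%, 1.25%, 1.35% and 1.25% members from lowest to highest. With the 5 quintiles weighted equally in every library, the shares became 1.85%, 0.704%, 0.416%, 0.477%, 0.880% and 0.553%, so the distance of HFD VSG crypts from the lower libraries narrowed. A list of RNAs that mark damaged droplets, most of it the transcript Gm42418, which overlaps ribosomal RNA, stood at 90693 CPM in the non-members of LFD sham crypts and 77405 CPM in those of HFD sham crypts but at 24401 CPM in those of HFD VSG crypts. Of the members of HFD sham crypts, 37.5% were in the pooled top 10% for this list, against 17.3% of the other barcodes there. In LFD sham crypts it was the reverse, 9.68% of members against 21.0% of others, and HFD VSG crypts had 0% of members. The paper also estimated more free RNA in the barcodes of both HFD sham libraries, most in the crypts, than in the rest. Such RNA adds to all UMIs of a barcode, by which the score is divided. Score-gene UMIs were also subtracted at each library's free RNA level, taken over 10% of a barcode's UMIs. This left 222 members and the same share in every library. It did not change the total by which the score is divided, nor use the paper's estimates. Beyond it, the part of free RNA and of these signs of RNA quality in the differences between libraries was not tested.

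Within every library, enterocyte genes made up more and stem cell genes less of the mRNA of members than of the other cells. The enterocyte list stood at 84598, 63608, 90999, 73065, 92510 and 53260 CPM in members and at 75259, 34412, 80302, 52849, 79116 and 29533 CPM in others. The stem list stood at 24.4, 54.2, 19.2, 23.1, 36.3 and 69.5 CPM in members and at 157, 835, 169, 346, 249 and 684 CPM in others. Cycling genes were likewise lower in members of all 6 libraries. With the other cells weighted to the members' depth and enterocyte content, the list medians of the log2 ratio were −0.94, −0.08, −0.21, −0.16, −1.77 and −1.18 for stem genes, against −2.38, −2.60, −0.58, −1.89, −2.89 and −2.37 without weights. The weighted medians of the cycling list were −1.05, −0.13, 0, −0.03, −1.94 and −0.65. The 0 of HFD sham crypts is not a measured likeness, since Mki67, Top2a and Birc5 gave no direction there and counted as 0. Mki67, a proliferation marker, had weighted log2 ratios of −1.82 in LFD sham crypts, −0.11 in LFD sham villi and −0.67 in HFD sham villi. They were −2.82 in HFD VSG crypts and −0.65 in HFD VSG villi, and HFD sham crypts gave no direction. Except in LFD sham villi and HFD VSG villi, members held too few of its UMIs. Their sums were raised to 3 there, so a value printed for them is a limit.

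Counted as cells in the pooled top 10% for a list, the picture depended on the library. For genes of the middle villus the members reached 21.2% against 9.90% of the others over all libraries, but 39 of these 47 members came from LFD sham crypts, where 41.9% of members stood against 37.3% of the others, and HFD sham crypts had 0% against 4.92%. Members also exceeded the others in LFD sham villi (15.8% against 12.3%), HFD sham villi (5.26% against 1.46%) and HFD VSG crypts (6.78% against 2.56%). For the villus tip the pooled 18.9% against 9.92% was 26.9% against 19.8% in LFD sham crypts and the opposite, 12.5% against 20.1%, in HFD sham crypts. It was 21.1% against 5.83% in LFD sham villi, 10.5% against 2.26% in HFD sham villi and 15.3% against 11.5% in HFD VSG crypts, so members stood higher in 4 of the 6 libraries. The enterocyte and enteroendocrine lists had the same pooled shares, 13.5% of members against 9.97% of others, although 19 of the 30 enteroendocrine ones came from LFD sham crypts and the summed enteroendocrine level was lower in members of 5 libraries, and 0 members of HFD sham villi and HFD VSG villi were in the enterocyte top 10%. For the tuft list only 10 members and 949 other barcodes were flagged, fewer than 10% of all. These were 4.5% against 3.93%, which is not a top 10% share. For stem cell genes the share was 0.450% against 10.1%, for cycling genes 0.901% against 10.1%, for goblet cell genes 2.25% against 10.1% and for Paneth cell genes 3.15% against 10.1%. These pooled shares also hold exceptions by library, with 21.1% of members against 22.8% of others for Paneth genes in LFD sham villi and 12.5% against 10.7% for goblet genes in HFD VSG villi. Lgr5, the receptor that marks intestinal stem cells, had 0 UMIs in the 222 members and was detected in 3.94% of other cells.

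**Figure D3:**
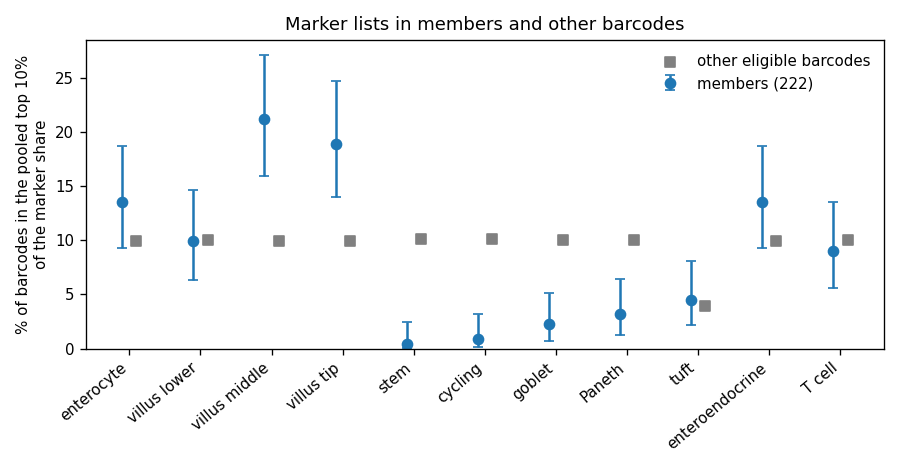
Percentage of members and of other eligible barcodes (axis in percent) that fall in the pooled top 10% for each lineage gene list, over all libraries, with exact 95% binomial intervals on the members. For the tuft list fewer than 10% of barcodes were flagged (4.5% of members and 3.93% of others). Members lay below the other cells for the stem list (0.450% against 10.1%), and the higher pooled share for the middle villus (21.2% against 9.90%) shrank to 41.9% against 37.3% within LFD sham crypts, which held 39 of those 47 members.

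A few members carried another lineage's genes. A single member held 62.4% of the goblet gene UMIs of the members of HFD VSG villi, and 1 member of HFD VSG crypts held 87.6% of theirs. A single member of HFD VSG villi held 99.1% of that library's tuft cell UMIs among members, and 1 of LFD sham crypts held 86.6% of the enteroendocrine UMIs. Droplets with more than 1 cell were not removed, and their part in these cells was not tested. Among the members, 9 lay above the 95th percentile of UMIs, and genes of myeloid cells, B and plasma cells and stroma were seen in 1, 2 and 3 members. T cell genes other than those barred by the rule were seen in 23 members (10.4%) and in 13.8% of the other cells. Members had a median of 12709 UMIs and 13.5% mitochondrial UMIs, against 15632 UMIs and 11.2% in the others. Within libraries, members were deeper than the others in HFD VSG crypts (18139 against 16869 UMIs) and HFD VSG villi (37202.5 against 32507 UMIs) and shallower in the other 4.

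Gene counts in members were compared with those of the other eligible barcodes of the same library. Only LFD sham crypts and HFD VSG crypts held at least 20 members, so genes were counted as higher or lower where the ratio of CPM was at least 2-fold in both, that is past 1 or −1 on the log2 scale. Of 4736 genes measured well enough, 85 were higher (1.79%) and 114 lower (2.41%), and the median over all genes was 0.0032. Requiring the same in all 6 libraries gave 57 of 6124 genes higher (0.931%) and 25 lower (0.408%). A gene was compared where at least 50 of its UMIs were seen in members or expected there from the other cells, and 54 of the 85, all 6 score genes included, entered only through the UMIs seen in members, so that they had to be higher. Among the 4490 genes with at least 50 UMIs expected, 31 were higher (0.69%). Of the 114 lower genes, 57 entered only through the UMIs expected. The list counts below carry the same limit. Where genes of a list were counted as higher, the number that does not depend on the members' own UMIs, or how the genes entered, is given with the count. The 85 genes were the 6 score genes, 50 genes of the interferon lists and 29 genes in no list. Because the members were chosen on an interferon score, these counts are a description of what accompanied the score.

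**Figure D4:**
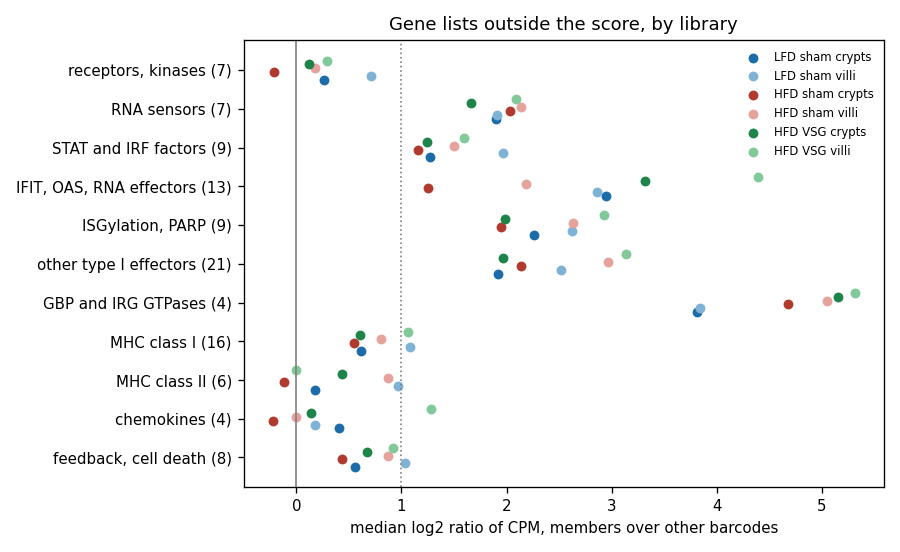
Log2 ratio of CPM in members over other eligible barcodes of the same library (horizontal axis) for the gene lists (rows), with 1 point per library for the median of the list. The GBP and IRG list lay between 3.81 and 5.31, the RNA effector list between 1.25 and 4.39, and the receptor list between −0.21 and 0.71. Genes without a direction counted as 0. The 1.25 came from HFD sham crypts, where the log2 ratio of the summed RNA effector list was 2.35.

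None of the 9 interferon ligand genes examined was detected in the members. These genes, Ifnb1, Ifna1, Ifna2, Ifna4, Ifne, Ifnk, Ifnl2, Ifnl3 and Ifng, had 0 UMIs in 222 members. Taking 3 counts as the limit of a count of 0, this allows a share of up to 1.35% of such cells with a UMI. The other eligible barcodes held 22 UMIs of Ifnk and 7 of Ifng, and barcodes with T cell UMIs held 183 of Ifng.

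The receptors and their kinases were close to the level of the other cells. Of 7 measured genes of this list 0 passed in either direction, and the median ratio was 0.21 on the log2 scale. Summed over the list, the log2 ratios were 0.19, 0.77, −0.14, 0.14, 0.19 and 0.29, with the interval above 0 in 4 libraries. Ifngr1 ran from −1.98 to 0.68, with the interval above 0 in 1 library and below 0 in 1. Il10rb, shared by the lambda receptor, was at 105, 100, 83.3, 92.4, 119 and 81.4 CPM in members and at 113, 61.2, 96.4, 77.3, 89.9 and 50.6 CPM in the others. Ifnar2 was at 43.9, 37.5, 38.4, 27.7, 51.0 and 17.0 CPM against 36.7, 18, 33.3, 21.9, 34.7 and 12.6 CPM. Within libraries, Il10rb was higher in members of 4 and Ifnar2 in members of all 6, with log2 ratios of 0.21 to 1.06 for Ifnar2 and an interval above 0 in 1 library. Jak2, a kinase of the gamma receptor, was higher in all 6, at 0.21 to 1.43, with intervals above 0 in 4. With the other cells weighted to the members' depth and enterocyte content, Ifnar2 turned to −0.09 in HFD sham villi and −0.05 in HFD VSG villi, and Jak2 to −0.16 in HFD VSG villi.

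The list of nucleic acid sensors and their signaling partners stood higher, with a list median of 1.70. Of 7 measured genes, 5 were past 2-fold (2 of the 4 with at least 50 UMIs expected), namely Ddx58, Ifih1, Dhx58, Zbp1 and Tlr3. Ifih1, which encodes the sensor of long double-stranded RNA MDA5, was at 242, 146, 199, 153, 223 and 86.5 CPM in members against 64.7, 38.2, 48.5, 40.1, 58.0 and 22.4 CPM in others, close to the same ratio in every library (1.90 to 2.03 on the log2 scale). Dhx58, which encodes the related regulator LGP2, had the higher ratio, between 3.52 and 5.55. Zbp1, a sensor of left-handed nucleic acid that can trigger necroptosis, had ratios of 2.82 to 4.79. The DNA sensor Cgas and its adaptor Tmem173 (STING) had 0 UMIs in the members. Both were sparse in the other cells too, at 1.10 to 7.16 CPM for Cgas and 0.053 to 0.869 CPM for Tmem173. A count of 0 does not show that members lack them.

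The transcription factors that carry the signal stood higher in part. Of 8 measured genes of the STAT and IRF list, 4 passed (3 of the 7 with at least 50 UMIs expected), among them Stat2, Irf7 and Ifi35, with a median of 1.23. Stat2, a subunit of ISGF3, was at 111, 50.1, 57.7, 116, 87.4 and 49.2 CPM in members and at 20.9, 10.6, 10.8, 9.72, 14.3 and 5.1 CPM in others. Irf7, the regulator that amplifies type I responses, was at 260, 163, 256, 213, 220 and 200 CPM against 62.0, 25.4, 37.5, 20.1, 43.6 and 12.2 CPM. For both genes the lowest level in members was above the highest in other cells. Members were chosen on an interferon score, and the share of all genes with such a gap was not computed, so this is a description only. Irf9, the DNA-binding subunit of ISGF3, did not pass, with log2 ratios from 0.38 to 1.74, and Irf1, more closely tied to interferon gamma, lay between 0.44 and 1.46.

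Antiviral effectors that act on RNA stood higher as a group, with 9 of 10 measured genes past 2-fold (5 of the 6 with at least 50 UMIs expected) and a median of 1.88. Ddx60, an RNA helicase-like antiviral factor, was at 406, 321, 365, 277, 419 and 293 CPM in members and at 48.2, 13.9, 13.2, 7.31, 24.4 and 5.06 CPM in others. Oasl2, an oligoadenylate synthetase-like protein, was at 211, 229, 237, 250, 251 and 209 CPM against 25.6, 10.2, 9.85, 5.31, 15.7 and 4.0 CPM. The Oasl2 levels in members were nearly flat across libraries, while those of the other cells ranged from 4.0 to 25.6 CPM. Members of all libraries had passed the same score edge, and its part in this likeness was not tested. Eif2ak2, which encodes the translation-blocking kinase PKR, had ratios of 1.38 to 2.16. Oas1a and Oas1g, and the further Ifit copies, are near-identical neighbours whose counts are uncertain.

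The list of ISG15 conjugation and Parp family genes stood higher throughout: 9 of 9 measured genes passed (6 of the 6 with at least 50 UMIs expected), with a median of 2.13. Herc6, the mouse ligase that attaches ISG15, was at 162, 91.8, 44.9, 203, 175 and 84.8 CPM in members and at 9.36, 3.8, 4.17, 3.55, 5.23 and 1.77 CPM in others. Its partners Uba7 and Ube2l6, the activating and conjugating enzymes, had ratios of 0.85 to 2.27 and 1.28 to 2.93. Rnf213, a giant ubiquitin ligase with antimicrobial roles, was at 595, 438, 519, 545, 461 and 288 CPM against 48.7, 36.4, 31.2, 31.2, 40.1 and 19.2 CPM. A930037H05Rik, a noncoding transcript annotated at chr11:119448788-119491298 on the − strand, was the single gene in no list among the 10 highest outside the score, with ratios of 2.95 to 3.83. It was detected in 50 of the 222 members, with 52 UMIs seen where 3.73 were expected in the 2 libraries used for gene counts. All 10 of these highest genes had only 1.33 to 14.9 UMIs expected. They entered the comparison through the UMIs seen in members, so that they had to be higher.

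Among the other type I effectors 15 of 20 measured genes were higher (7 of the 12 with at least 50 UMIs expected) and 1 lower, with a median of 1.98. Ifi44, with a median ratio of 5.32 in the 2 libraries, entered the comparison through 54 UMIs seen in their members where 1.33 were expected, so its rank at the top outside the score follows in part from that filter, and it was seen in only 39 members of all libraries. Bst2, which encodes tetherin, a protein that holds budding virus at the cell surface, was at 32.2, 62.6, 57.7, 55.5, 51.0 and 144 CPM in members and at 5.97, 6.03, 3.28, 3.95, 3.88 and 8.52 CPM in others. Trim30a had ratios of 3.79 to 6.55, and Xaf1, a pro-apoptotic factor, 3.12 to 5.28. The exception was Ifitm2, which encodes a membrane protein that hinders viral entry: it was at 1.95, 25.0, 0, 13.9, 2.94 and 27.1 CPM in members against 21.3, 107, 18.3, 49.9, 32.1 and 153 CPM in others. It was lower in the members of 5 libraries, and its 0 UMIs in the 16 members of HFD sham crypts were too few UMIs for a direction. With the other cells weighted to the members' depth and enterocyte content, the log2 ratio of Ifitm2 turned to 0.33 in LFD sham villi and 0.16 in HFD sham villi. Mx1 and Mx2 were not analysed here.

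The GBP and IRG GTPases act in defence against intracellular microbes and are known mainly as targets of interferon gamma. Only 4 of the 12 genes, namely Gbp7, Igtp, Irgm1 and Irgm2, were compared, and all of them entered through the UMIs seen in members (107 to 197, where 6.71 to 10.95 were expected), so that they had to be higher. Their median ratio was 4.48, which was 3.81 in LFD sham crypts alone and 5.73 in HFD VSG crypts alone, each with the genes measured well enough there. Igtp was at 108, 91.8, 51.3, 97.1, 84.4 and 78.0 CPM in members and at 9.10, 4.69, 0.735, 1.30, 1.59 and 1.12 CPM in others. The other cells of both LFD sham libraries had the highest Igtp levels, while members, all past the same score edge, lay within 51.3 to 108 CPM. Igtp and Irgm2 overlap on chromosome 11 (chr11:58199556-58207591 and chr11:58199618-58222782, both + strand), so their counts may not be separate. Ifi47, another IRG gene that was singled out after its value was seen, had a median ratio of 3.37.

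The summed level of MHC class I genes was higher in members of every library, by 0.53 to 1.10 on the log2 scale, whereas that of MHC class II varied by library. Of 16 measured class I genes 3 passed (1 of the 14 with at least 50 UMIs expected), with a median of 0.62. They were Tap1 and Tap2, which encode the peptide transporter, and Psmb9, an immunoproteasome subunit. Tap1 was at 87.7, 79.3, 51.3, 46.2, 90.3 and 84.8 CPM in members and at 22.3, 16.2, 18.6, 16.5, 18.4 and 14.3 CPM in others. B2m, the light chain of class I molecules, had ratios of 0.54 to 1.22, and H2-K1 0.58 to 1.38. Of the class II genes 0 of 5 passed in the 2 libraries used for gene counts, with a median of 0.32. Summed over the list, the class II log2 ratios were 0.20, 1.02, −1.10, 1.71, 0.42 and −0.31, with the interval above 0 in LFD sham crypts, LFD sham villi, HFD sham villi and HFD VSG crypts and below 0 in HFD sham crypts. With the other cells weighted as above, the class II medians were 0.05, 0.03, −0.39, 0.56, 0.34 and −0.02. Cd74, the invariant chain, was at 723, 847, 25.6, 111, 61.8 and 18.7 CPM in members and at 596, 385, 69.1, 33.0, 48.1 and 23 CPM in others. Between libraries, Cd74 in members and others of both LFD sham libraries was above all HFD libraries.

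Of 4 measured chemokine genes only Cxcl10 passed, and it entered through the UMIs seen in members (65, where 2.14 were expected). CXCL10 attracts T cells through CXCR3. Its 106 UMIs in members came from 20 cells, and 39 came from 1 cell of HFD VSG villi, which held 97.5% of that library's Cxcl10 UMIs in members. Of the 20 cells, 17 were in the top tertile of members by score. Ccl25, a chemokine made constitutively by small intestinal epithelium, was at 581 to 1012 CPM in members and 672 to 903 CPM in others. The related gene Cxcl11 was not analysed here.

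Lists for feedback and cell death, for microbe-induced epithelial defence, for the integrated stress response and for immediate early genes had 0 genes past 2-fold in either direction in the 2 libraries used for gene counts, of 7, 7, 3 and 7 measured, with medians of 0.61, −0.06, 0.18 and 0.07. Summed over the list, however, the feedback and death genes were higher in members of all 6 libraries, by 0.34 to 1.05 on the log2 scale with every interval above 0. Its genes below the UMI minimum are given here after their values were seen. Socs1, an inhibitor of JAK kinases, had ratios of 1.68 to 3.30 and Mlkl, the executor of necroptosis, 1.94 to 2.74 in the 4 libraries with enough UMIs, from 48 and 51 UMIs in all members. Cd274 (PD-L1), a ligand that restrains T cells, stood at 4.59 in LFD sham crypts and 4.79 in HFD VSG crypts. Ripk3, in contrast, ran from −0.02 to 1.13, from 31 UMIs in all members. It was higher in members of 3 libraries, with an interval above 0 in 0. The microbe-induced sum differed by library, at −0.58, 1.09, −0.66, −0.07, 0.25 and 1.20. Gsdmd, which encodes the pore-forming protein of pyroptosis, had ratios of 0.33 to 1.65. Reg3g, an antimicrobial lectin, was at 2192, 9987, 1224, 1599, 1370.3 and 3348 CPM in members and at 3603, 4217, 1533, 1428, 1124 and 1415 CPM in others. It was higher in members of 4 libraries and lower in 2.

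The lowest genes relative to other cells were secretory and crypt genes. The 10 lowest were Defa29, Gm14851, Defa17, Clps, Ang4, Lyz1, Gip, AY761184, Olfm4 and Defa3, with median ratios of −4.94 to −4.48. Most belong to Paneth cells: the alpha-defensin genes and Gm14851 and AY761184 lie in the defensin cluster of chromosome 8 and are near-identical copies whose counts are uncertain, Lyz1 encodes lysozyme and Ang4 an antimicrobial ribonuclease. Lyz1 was at 81.9, 363, 109, 407, 36.3 and 98.4 CPM in members and at 1269.99, 8115, 1253, 4617, 1326 and 1436 CPM in others. Olfm4, a stem cell marker, was at 3.9, 20.9, 6.41, 0, 4.91 and 5.09 CPM in members and at 77.7, 487, 97.8, 177, 134 and 446 CPM in others. All 7 measured Paneth list genes were lower, of which 2 entered the comparison only through the UMIs expected. When the other cells were weighted to the members' depth and enterocyte content, 83 genes were higher, 80 of them among the 85, and 42 were lower, all 42 among the 114. The 7 Paneth genes were among the 42, which rest on LFD sham crypts and HFD VSG crypts. The weighted medians of the Paneth list were −2.26, −0.14, −0.92, −0.60, −3.56 and −1.40, against −3.95, −4.50, −3.73, −3.50, −4.91 and −4.55 without weights, so most of the gap was gone in the other 4 libraries. Lyz1 had weighted ratios of −2.26, −0.21, −0.87, −0.60, −3.82 and −0.45.

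The interferon genes outside the score also set the members apart cell by cell. For each barcode the UMIs of the sensor, STAT and IRF, RNA effector, ISG15 conjugation and other type I effector lists were summed and divided by its total, and 205 of 222 members exceeded the 95th percentile of the other barcodes of their library. The share was alike by library, with 84 of 93, 17 of 19, 15 of 16, 18 of 19, 56 of 59 and 15 of 16. It depended on how many score genes a member showed: 6 of 11 members with 1 score gene, 24 of 29 with 2, 38 of 42 with 3, 49 of 51 with 4, 44 of 45 with 5 and 44 of 44 with all 6. Members chosen on the UMIs of a single score gene thus showed the accompanying genes least often.

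The same measure was graded below the selection edge. It exceeded the 95th percentile in 3.32% of barcodes with no score UMI, 6.73% of those with a UMI but below the top 5% of the score, 26.9% of those between the top 5% and the top 2%, and 43.4% of those in the top 2% that were not members. Among members it was 83.8%, 93.2% and 100% in the lowest, middle and highest tertile. The 2 bands just below the members were shallow, with median depths of 5759 and 4759 UMIs against 15035 UMIs in barcodes without a score UMI, and its part in their values was not tested.

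The lists outside the score were also compared by band in both larger libraries. From barcodes with no score UMI to the highest tertile of members, the summed level of the RNA effector list went from 451 to 2745 CPM in LFD sham crypts and from 397 to 2768 CPM in HFD VSG crypts. That of the GBP and IRG list went from 15.1 to 508 CPM and from 6.68 to 460 CPM, though not steadily in HFD VSG crypts, where the lowest, middle and highest tertiles of members stood at 177, 117 and 460 CPM. Rnf213 went from 38.5 to 793 CPM and from 33.3 to 697 CPM. MHC class II stood at 1200 and 1527 CPM at the ends of the scale in LFD sham crypts and at 94.6 and 133 CPM in HFD VSG crypts.

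**Figure D5:**
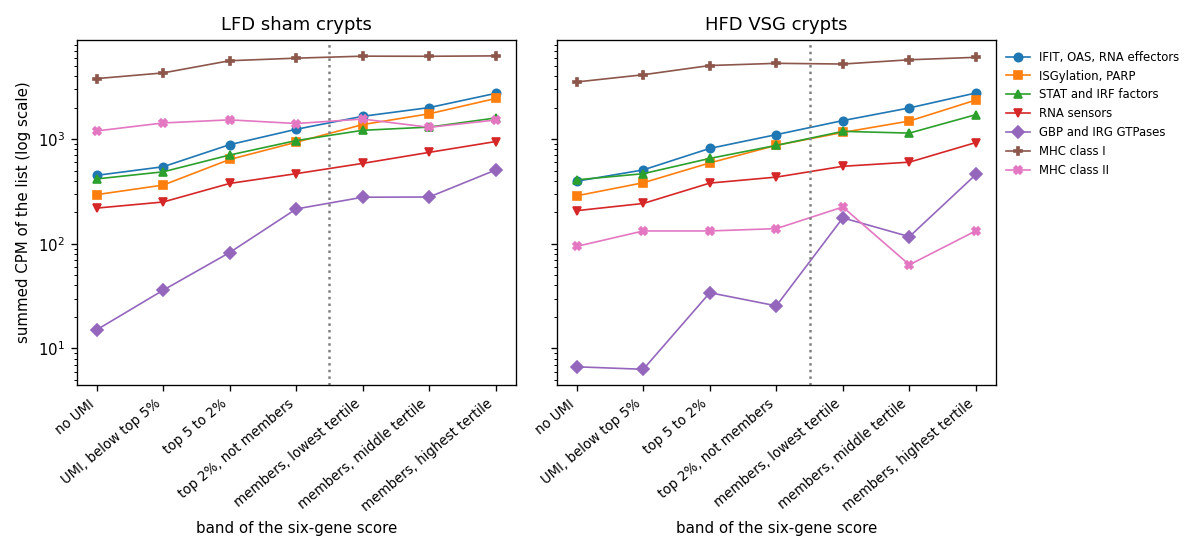
Summed CPM of 7 gene lists outside the score (vertical, log axis) in bands of the score from no UMI to the highest tertile of members (horizontal), in LFD sham crypts (left) and HFD VSG crypts (right), with 1 line per list and a dotted line at the selection edge. The RNA effector line climbed from 451 to 2745 CPM in LFD sham crypts, while the MHC class II line was near 1200 to 1559 CPM there and near 63.1 to 225 CPM in HFD VSG crypts.

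Levels in members were also set side by side between HFD VSG crypts and LFD sham crypts, the libraries with most members. Members of both had passed the same score edge, and its part in small differences was not tested. The median log2 difference, HFD VSG minus LFD sham, was −0.06 for RNA effectors, 0.01 for sensors, 0.04 for the other type I effectors, 0.03 for MHC class I, −0.24 for STAT and IRF genes, −0.18 for ISG15 conjugation genes and 0.37 for feedback and death genes. These medians cover genes that went both ways: of 19 other type I effectors 5 had an interval above 0 and 2 below, and of 16 class I genes 3 above and 4 below. The GBP and IRG list differed by −0.41 in members and by −2.26 in the other cells, and MHC class II by −3.36 in members and −3.61 in the other cells. The members of HFD sham crypts were only 16, and their differences from LFD sham crypts were −0.22 for RNA effectors and −2.99 for MHC class II. In the other cells of those libraries class II differed by −2.79. Between HFD VSG crypts and HFD sham crypts, 3 class II genes could be compared, with a median of 0.60 in members and −0.62 in the other cells, and each library is 1 pool of mice.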

How the data were processed

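Single-cell suspensions had been sequenced with the 10x Genomics 3′ chemistry, and the deposited matrices hold whole-number UMI counts per gene and barcode, made by the authors with Cell Ranger 6.0.0 on mm10 per the submitters' processing notes. The authors' cell types were not used here. Called barcodes (59457) were filtered with the rule of the opening paragraph, which left 24368 of 26696 that passed the quality limits. No doublet caller was run and no free RNA was removed. The members and gene lists were chosen with earlier results of these data known.

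UMIs were summed per library over members and over other eligible barcodes, divided by all UMIs and compared as log2 ratios. Sums under 3 UMIs were set to 3, and where the raised side came out higher the ratio was set to 0 in medians and given no direction. Genes with at least 50 UMIs seen or expected in members were compared, in libraries with at least 20 members. Named genes were the 10 highest outside the score and the 10 lowest by the median over these libraries, with the genes of the fixed lists. Shares have exact binomial intervals and levels exact Poisson intervals. Gene IDs matched the GENCODE annotation in 32235 of 32285 cases. Calculations, checked on simulated data, were run with matplotlib 3.10.9, pandas 2.3.3, scipy 1.17.1 and numpy 2.4.6 under Python 3.11.15. No p-value was computed. Alternatives changed the score cut, the quality limits, the depth, the gene filter and the libraries used, and 4 kinds (cells with high enterocyte content, all 6 libraries, a minimum on expected UMIs alone and, for the genes lower, other cells weighted to the members) were added after the data were seen.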

Additional observations from a re-analysis of the deposited data

How the results depend on the processing

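Under the alternatives, 178 values stayed within the counting interval or the spread between libraries of the reported value (counts within 1.5 times), 15 moved beyond it, and 2 whose interval excluded 0 changed direction. In all, 19 log2 values changed sign, and the cause was not tested. The member share ratio ranged from −0.45 to 1.17 for HFD VSG over HFD sham villi, from −0.78 to 0.62 for HFD sham over LFD sham villi and from −0.28 to 1.45 for crypts over villi in HFD sham, so these have no stable direction. The MHC class II median turned to −0.11 with the top 0.5% of the score and to −0.047 without barcodes above the 95th percentile of UMIs. With at most 10% mitochondrial UMIs, the log2 ratio of member shares turned to −0.29 for HFD VSG over HFD sham crypts and to −0.012 for crypts over villi in HFD VSG, and was 1.17 for HFD VSG over HFD sham villi and 1.45 for crypts over villi in HFD sham. Among barcodes in the upper part, split at the median, of the enterocyte share (added after the data were seen), crypts over villi was 1.07 in LFD sham and 0.67 in HFD VSG. With the top 0.5% of the score it was 2.87 in LFD sham, and the sensor median was 2.13. A minimum of 200 UMIs per gene left 37 genes higher and no GBP or IRG gene, so that list has no value there. With at least 50 UMIs expected, whatever was seen in members (added later), 31 were higher. The number lower was 42 with other cells weighted to the members and 25 over all 6 libraries, both added later. Using only LFD sham crypts or only HFD VSG crypts, list medians ranged from 1.80 to 1.90 for sensors, 1.36 to 1.61 for STAT and IRF genes, 3.81 to 5.73 for GBP and IRG genes, and −0.26 to 0.013 for chemokines. No paired test was run. Members and other cells pair within each library, but the members were chosen on the score. The crypt and villus libraries pair within each pool, but each condition is 1 pool of mice. Both kinds of pair are set side by side as values. The precision of shares is limited by 16 to 19 members in 4 of the libraries.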

Other observations

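Ribosomal protein genes, which were in no list and were singled out after their values were seen, were lower in members. Of 81 measured, 27 were at least 2-fold lower in both libraries used for gene counts. The median log2 ratio was −1.16, −0.74, −1.21, −0.88, −0.87 and −0.68 in LFD sham crypts, LFD sham villi, HFD sham crypts, HFD sham villi, HFD VSG crypts and HFD VSG villi. With the other cells weighted to the members' depth and enterocyte content, 0 of the 81 were that low in both libraries, and the medians were −0.62, −0.05, −0.65, −0.42, −0.59 and −0.47.

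Barcodes with a UMI of Cd3e, Cd3g or Ptprc were barred from membership. Among these 2328 barcodes, 5, 10, 0, 0, 2 and 3 passed the score edge in the same order of libraries. No member barcode sequence was found in more than 1 library, although 78 eligible barcode sequences were.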
